A study of Mus musculus with 87 samples.

Results

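The Hippo pathway genes described here are 10 of the 37991 genes in the deposited table of mouse liver transcripts. They were taken by name: the transcriptional co-activators Yap1 and Wwtr1 (which encodes Taz), their DNA-binding partner Tead1, the kinases Lats1 and Lats2, the target genes Ctgf, Cyr61, Ankrd1 and Amotl2, and the LIM-domain protein gene Ajuba. The table listed 9 of the 10 under these symbols and Ajuba under its older symbol Jub. Where a symbol was repeated (Tead1), the protein-coding row was used. All 10 were followed across every group with values, 80 individual livers in 19 groups.

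All mice were male C57BL/6 animals labelled as 12-14 weeks old, with no engineered allele named. The study gives this as the age at surgery, so mice killed weeks after PH were older at collection. Mice were kept on a fixed light cycle with food given only in the dark. Partial hepatectomy (PH), the removal of about 2/3 of the liver, and sham surgery, a laparotomy without resection, were both carried out under isoflurane 2 h into the light period. The untreated livers were C0 (0 h, 9 livers), C4 (3 livers taken without surgery at the time of day of the 4 h groups) and C4W (2 livers, beside the 4-week group). Sham livers were collected at 1 h (S1, 6 livers), 4 h (S4, 5), 10 h (S10, 3), 20 h (S20, 3) and 48 h (S48, 3). Post-PH livers were collected at 1 h (X1, 6), 4 h (X4, 3), 10 h (X10, 6), 20 h (X20, 6), 28 h (X28, 3), 36 h (X36, 6), 44 h (X44, 3), 48 h (X48, 5), 72 h (X72, 3), 1 week (X1W, 3) and 4 weeks (X4W, 2). Mice were operated on and killed 3 at a time, so a group of 3 livers is 1 surgical session, and for such groups the session and the condition cannot be told apart.

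The Hippo pathway is a kinase cascade in which the Lats kinases phosphorylate Yap1 and Taz and hold them in the cytoplasm. When the cascade is low, Yap1 and Taz enter the nucleus, bind Tead factors and raise genes such as Ctgf, Cyr61 and Ankrd1. In the liver the pathway is known for its control of organ size, and it responds to cell contact, tension of the actin cytoskeleton and soluble signals. Much of this control acts on protein phosphorylation, which RNA-Seq does not measure.

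The 10 genes lie, in the mouse assembly mm9 (NCBIM37), at Yap1 chr9:7931999-8004596 (minus), Wwtr1 chr3:57259571-57379832 (minus), Tead1 chr7:119822832-120050319 (plus), Lats1 chr10:7401007-7436256 (plus), Lats2 chr14:58260914-58377225 (minus), Ctgf chr10:24315248-24318489 (plus), Cyr61 chr3:145309935-145312949 (minus), Ankrd1 chr19:36186455-36194334 (minus), Amotl2 chr9:102619002-102635748 (plus) and Ajuba chr14:55186309-55196253 (minus), with the strand in parentheses. The upstream sequences of the target genes Cyr61 and Ankrd1 are shown because both genes were higher together at 10 h after PH than after sham. Each run holds the 250 bases before the annotated 5′ end of the gene, written 5′ to 3′ on the strand of the gene. Capitals mark the core of the Tead binding element (MCAT), GGAATG or its reverse complement CATTCC. The runs are chr3:145312950-145313199 for Cyr61 and chr19:36194335-36194584 for Ankrd1.
Cyr61: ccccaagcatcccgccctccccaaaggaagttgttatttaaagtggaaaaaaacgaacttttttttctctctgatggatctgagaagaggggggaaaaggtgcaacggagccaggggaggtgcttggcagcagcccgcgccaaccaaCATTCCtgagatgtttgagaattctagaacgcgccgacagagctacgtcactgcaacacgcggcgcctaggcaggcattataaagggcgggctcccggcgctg
Ankrd1: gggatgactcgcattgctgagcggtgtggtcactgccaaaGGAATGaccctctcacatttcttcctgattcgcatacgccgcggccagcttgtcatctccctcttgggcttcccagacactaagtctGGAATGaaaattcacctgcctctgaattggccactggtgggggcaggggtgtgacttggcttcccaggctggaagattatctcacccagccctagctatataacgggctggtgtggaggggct
The Cyr61 run held 1 match, which began 103 bases before the start of the gene, and the Ankrd1 run held 2, at 210 and 123 bases. Over 22330 protein-coding genes with a position, 11.4% had a match to this element on either strand in the same window. Of the 9 members searched, 6 had one, which besides these were Yap1, Wwtr1, Tead1 and Amotl2. A match describes the letters and not binding, and the annotated end may not be the start used in liver.

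Values are RPKM, read counts divided by transcript length and by the mapped reads of the library, so levels can be compared between genes. Estimated depth was 12.2 to 48.8 M reads per library, with a median of 26.7 M. A gene counted as detected above −1.5 on the log2 RPKM scale. Of the 10 genes, 7 were detected in all 80 livers, Ctgf in 79, Tead1 in 47 and Ankrd1 in 28. At this depth Ankrd1 rested on few reads, an estimated 9.96 per library in the median. Groups were compared with limma on log2(RPKM + 0.25) over the 15396 genes detected in at least 1 liver. A gene was called at a Benjamini-Hochberg adjusted p below 0.05 and a log2 difference beyond 0.5. Differences are given on this scale, which understates the change of genes as low as Tead1 and Ankrd1. The median of all genes itself differed from C0 by over 0.1 in some groups, by −0.11 in X1, −0.20 in X4, 0.11 in X20, 0.16 in X36, 0.23 in X44, 0.24 in X48, 0.21 in X72, 0.12 in X1W, −0.12 in S1 and −0.14 in S4. It also shifted by 0.27 between X48 and S48, by −0.22 and −0.26 in S4 and X4 against C4, and by 0.20 between X28 and X4, and differences as small as these are to be read against it.

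The 9 resting livers were not uniform for some of these genes, and this bears on each comparison with C0. The study collected livers in 3 periods. Replicates 1 to 3, 4 to 6 and 7 to 9 of C0 were taken as periods 1, 2 and 3, an assumption from the order of the numbers, and the other groups were assigned in a like way. Ctgf was at 0.533, 0.712 and 0.577 RPKM in C0 replicates 1 to 3, at 3.73, 5.31 and 3.89 in replicates 4 to 6, and at 1.56, 0.782 and 1.42 in replicates 7 to 9. Ankrd1 was between 0.129 and 0.175 RPKM in replicates 1 to 6 and at 0.713, 0.740 and 0.502 in replicates 7 to 9. Replicates 4 to 6 thus stood above all other C0 livers for Ctgf, and replicates 7 to 9 for Ankrd1. Ctgf was the only one of the 10 genes called for replicates 4 to 6 against 1 to 3 (6.09% of all genes were called), with a log2 difference of 2.40 ± 0.30 (SE, adjusted p = 2.27e-08). Yap1, Ctgf and Ankrd1 were called for 7 to 9 against 1 to 3 (17.3% of all genes), and Tead1, Lats1, Ctgf and Ankrd1 for 7 to 9 against 4 to 6 (17.7%). Values within 1 period are therefore given beside many of the results against C0.

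Tead1 showed the largest called difference among the 10 genes, and it came at 4 h. Tead1, a factor that binds DNA and needs a co-activator such as Yap1, was low in resting liver, between 0.0889 and 0.303 RPKM (median 0.157) in C0. The 3 X4 livers were at 5.48, 4.51 and 4.85 RPKM. The 5 S4 livers were at 2.97, 1.39, 2.03, 0.799 and 1.24 RPKM, and the 3 C4 livers, unoperated at the same time of day, at 0.144, 0.0799 and 0.137. All X4 livers were above all S4 livers, and all S4 livers above all C0 and C4 livers. By mean RPKM, Tead1 was 24.6-fold higher in X4 than in C0 and 8.37-fold higher in S4. The log2 difference was 3.55 ± 0.19 (SE, adjusted p = 1.09e-24) for X4 against C0 and 2.02 ± 0.16 (adjusted p = 1.21e-17) for S4 against C0. Within a period it was 3.24 ± 0.19 (adjusted p = 1.2e-20) for X4 in period 2, and 2.37 ± 0.19 (adjusted p = 9.07e-16) and 1.18 ± 0.21 (adjusted p = 9.71e-06) for S4 in periods 1 and 2. X4 exceeded S4 by 1.53 ± 0.20 (adjusted p = 1.21e-07), and within period 2 by 2.05 ± 0.21 (adjusted p = 3.25e-10). Against C4 the differences were 3.81 ± 0.23 (adjusted p = 1.33e-21) in X4 and 2.28 ± 0.20 (adjusted p = 1.37e-14) in S4. A second row with the symbol Tead1, a non-coding transcript that overlaps its end on the same strand, was listed at 0 in every liver.

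**Figure D1:**
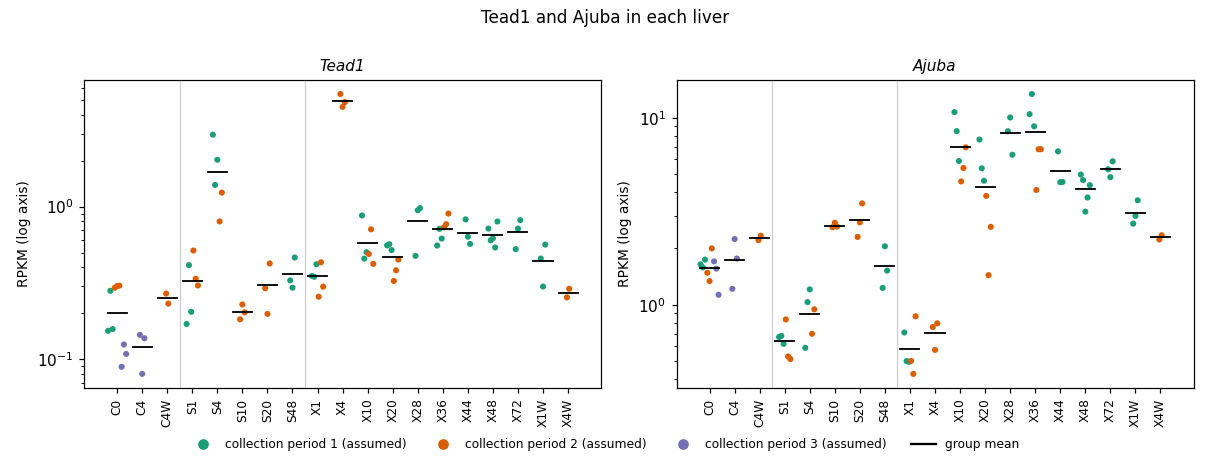
RPKM of Tead1 and Ajuba in each of the 80 livers, on log axes, by group. Each point is 1 liver, coloured by its assumed collection period, and lines are group means. Tead1 stood at 4.51 to 5.48 RPKM in X4 and was below 1 RPKM in every later group, while Ajuba was lowest at 1 and 4 h and had its highest group means at 28 and 36 h post-PH.

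Tead1 then fell back but stayed above its resting level after PH. At 10 h the sham livers were at 0.182, 0.228 and 0.203 RPKM, inside the C0 range, while the 6 X10 livers lay between 0.421 and 0.875 RPKM (median 0.496). The ranges did not overlap, and X10 exceeded S10 by 0.84 ± 0.20 (adjusted p = 0.00243), or 0.78 ± 0.19 (adjusted p = 0.00338) within period 2. From 20 to 72 h each post-PH group was called higher than C0, by 0.68 to 1.21 on the log2 scale. At 48 h the X48 livers, at 0.718, 0.601, 0.620, 0.539 and 0.799 RPKM, were all above the S48 livers, at 0.328, 0.294 and 0.464. This difference of 0.57 ± 0.20 (adjusted p = 0.019) was no longer called without S48 replicate 1 or without S48 replicate 2. Tead1 was also called at 1 week, by 0.62 ± 0.19 (adjusted p = 0.0073), but not without X1W replicate 3. At 4 weeks it was at 0.254 and 0.289 RPKM, inside the C0 range. Between livers of the same time of day, Tead1 in X28 was below X4 by 2.34 on the log2 scale (SE 0.23, adjusted p = 2.13e-12).

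The co-activators moved less than Tead1. Yap1, which carries the transcriptional activation of the pathway, had the highest mean level of the 10 genes in C0, 5.06 ± 1.01 (SD, n = 9) RPKM. Its S4 livers were at 9.30, 8.84, 10.3, 6.35 and 7.56 RPKM, and its X10 livers between 7.98 and 9.93 RPKM (median 9.22). The X10 livers were all above the C0 livers, which were between 3.59 and 6.66 RPKM, and 1 S4 liver overlapped them. Yap1 was called higher than C0 in S4, by 0.72 ± 0.09 (adjusted p = 2.36e-10), and in S10, by 0.62 ± 0.11 (adjusted p = 2.33e-06). It was also called in X10, X28, X44, X48 and X72, by 0.60 to 0.84. The calls in S10 and X72 were lost when the assumed period entered the model. Within a period, Yap1 was called higher than C0 in X10 by 0.57 ± 0.10 (adjusted p = 2.2e-06) and 0.79 ± 0.10 (adjusted p = 1.02e-09) in periods 1 and 2, in S4 in period 1 alone, by 0.61 ± 0.10 (adjusted p = 5.03e-07), and in S10 in period 2, by 0.59 ± 0.10 (adjusted p = 2.24e-06). In X28, X44, X48 and X72 the differences within period 1 were 0.31 to 0.49, below the threshold of 0.5. Yap1 was called in none of the 5 comparisons of PH with sham of the same hour in limma, and its largest difference there was at 48 h, 0.41 ± 0.12 (adjusted p = 0.00308), below the threshold of 0.5.

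Wwtr1, the gene of the second co-activator, was called higher than C0 in every post-PH group from 4 h to 1 week. C0 livers were between 1.46 and 2.56 RPKM (median 2.25). The differences ran from 0.54 to 0.90 on the log2 scale, the lowest of them in X20, a call lost without C0 replicate 1. Within periods 1 and 2 the X20 difference was 0.60 ± 0.13 (adjusted p = 0.00031) and 0.58 ± 0.13 (adjusted p = 0.000539). After scaling every library to 1 median the calls in X20, X44 and X48 were lost, and S10 was the only sham group called without this scaling, by 0.69 ± 0.12 (adjusted p = 5.1e-06). At 20 h Wwtr1 was between 2.98 and 3.56 RPKM (median 3.26) after PH and at 1.86, 2.59 and 2.01 after sham. At 48 h it was at 3.33, 3.70, 3.70, 3.59 and 4.32 RPKM after PH and at 2.15, 2.24 and 2.16 after sham. At neither hour did the groups overlap, with log2 differences of 0.55 ± 0.13 (adjusted p = 0.00293) at 20 h and 0.70 ± 0.14 (adjusted p = 2.25e-05) at 48 h. The call at 20 h was lost without S20 replicate 1, and within period 2 the difference was 0.56 ± 0.13 (adjusted p = 0.00282). Wwtr1 had its highest group mean at 1 week, 4.33 ± 1.22 (n = 3) RPKM, with livers at 4.22, 3.17 and 5.60. The group next in order, X10, was at 4.14 ± 0.492 (n = 6), and the ranges overlapped. At 4 weeks the X4W livers were at 2.65 and 2.64 RPKM and the C4W livers at 1.91 and 1.95, a difference of 0.41 ± 0.19 (adjusted p = 1) that was not called.

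The kinase genes changed modestly. Lats1, which phosphorylates the co-activators, was between 2.41 and 3.99 RPKM (median 3.31) in C0. X4 livers were at 5.43, 5.03 and 5.00 RPKM and X10 livers between 5.06 and 5.97 RPKM (median 5.33), all above C0. Lats1 was called higher than C0 in S4, S10, X4, X10, X20, X44, X48 and X72, by 0.55 to 0.71, and the calls in X4, X20, X48, S4 and S10 were lost when the assumed period entered the model. Within period 1 it was called in S4, X10, X20, X44, X48 and X72, by 0.51 to 0.65. Within period 2 it was called in X10, by 0.50 ± 0.10 (adjusted p = 3.44e-05), and not in S4, S10, X4 or X20, at 0.31 to 0.41. Lats1 was lower in C0 replicates 7 to 9 than in replicates 4 to 6, with a log2 difference of −0.53 ± 0.10 (adjusted p = 4.26e-05). Lats2, its paralog, was called against all C0 livers in X10 alone, with livers between 1.99 and 2.79 RPKM (median 2.28) against 1.02 to 1.77 in C0, without overlap (0.68 ± 0.09, adjusted p = 4.52e-10). Mean RPKM of Lats2 was 1.19 in C0 and 2.40 in X10 in period 1, and 1.62 and 2.19 in period 2. In period 1 it was also 2.00 in X20, 1.92 in X28, 1.76 in X36, 1.86 in X44, 1.95 in X48 and 1.38 in X72. The annotated span of Lats2 overlaps Xpo4 on the same strand. Neither kinase gene was called in the 5 comparisons of PH with sham.

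**Figure D2:**
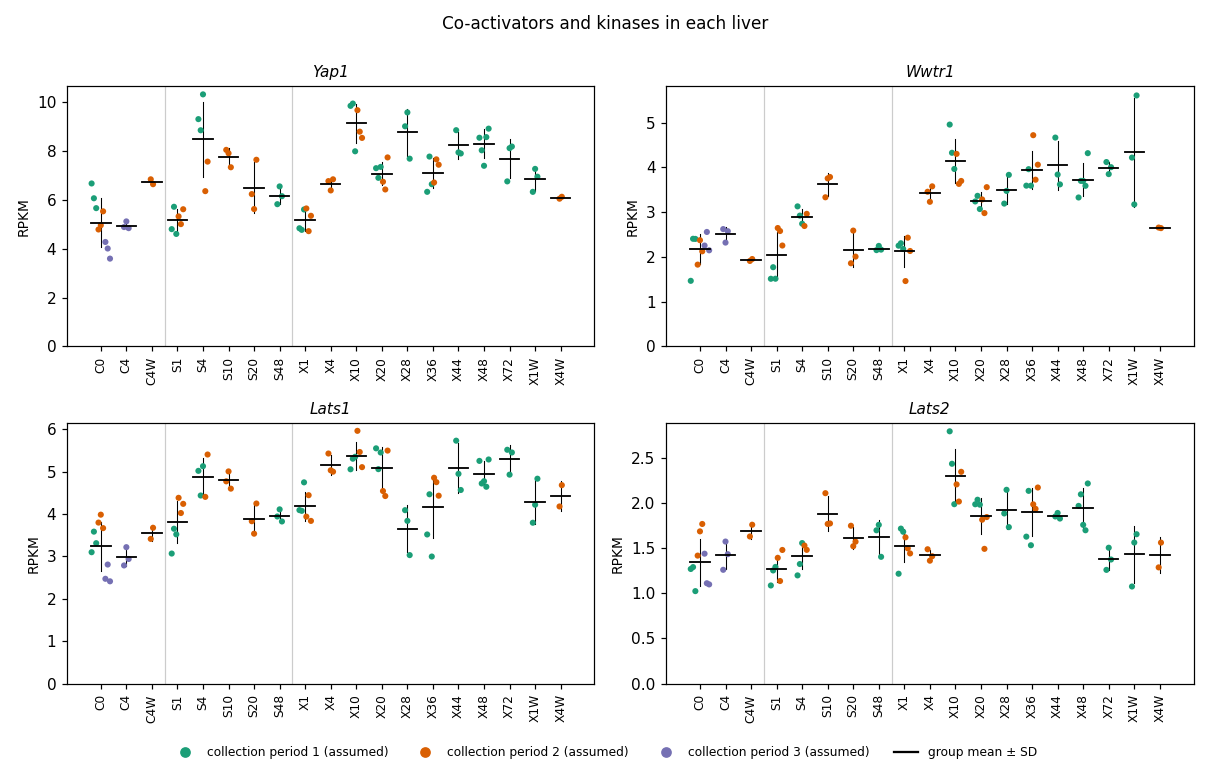
RPKM of Yap1, Wwtr1, Lats1 and Lats2 in each of the 80 livers, by group. Points are livers coloured by assumed collection period, and bars are group means with SD. Wwtr1 in X20 and X48 lies above the sham livers of the same hour without overlap, while Yap1 and Lats1 are also raised in S4 and S10.

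Ajuba fell first and then rose. On the log2(RPKM + 0.25) scale it had the largest difference to C0 of the 10 genes from 10 to 72 h post-PH. By group means of log2 RPKM without the added 0.25, Tead1 differed more than Ajuba in X20, X44, X48 and X72. The Ajuba protein binds Lats kinases and holds them from phosphorylating Yap1, and it also sits at cell junctions. In C0, Ajuba was between 1.13 and 2.00 RPKM (median 1.58). At 1 h it was between 0.427 and 0.868 RPKM (median 0.501) in X1 and between 0.512 and 0.835 RPKM (median 0.645) in S1, below every C0 liver. Ajuba fell by 1.14 on the log2 scale (SE 0.19, adjusted p = 2.66e-06) in X1 and by 1.03 on the log2 scale (SE 0.19, adjusted p = 4.61e-05) in S1. It was still low at 4 h, at 0.761, 0.574 and 0.796 RPKM in X4 and at 0.589, 1.03, 1.21, 0.700 and 0.946 in S4. At 10 h it was at 10.7, 8.48, 5.87, 4.57, 5.39 and 6.95 RPKM after PH and at 2.60, 2.75 and 2.62 after sham. All X10 livers were above all S10 livers, and all S10 livers above C0, a call lost without S10 replicate 2.

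The rise of Ajuba was larger after PH than after sham at 10 and 48 h. X10 exceeded S10 by 1.26 ± 0.26 (adjusted p = 0.00044), and by 1.00 ± 0.24 (adjusted p = 0.00309) within period 2. At 48 h X48 livers were at 4.97, 4.64, 3.15, 3.75 and 4.36 RPKM and S48 livers at 1.23, 2.06 and 1.52, a log2 difference of 1.26 ± 0.27 (adjusted p = 8.33e-05) without overlap. The difference between PH and sham at 48 h was itself larger than that at 1 h, by 1.37 ± 0.34 (adjusted p = 0.0012). At 20 h the groups overlapped. X20 was at 7.65, 5.37 and 4.61 RPKM in replicates 1 to 3 and at 3.82, 1.44 and 2.61 in replicates 4 to 6, against 2.31, 2.76 and 3.49 in S20, and within period 2 the difference was −0.18 ± 0.24 (adjusted p = 0.699). The highest group means were X36 at 8.42 ± 3.26 (n = 6) RPKM and X28 at 8.28 ± 1.85 (n = 3), whose ranges overlapped. Between X4 and X28, livers of the same time of day, Ajuba rose by 3.14 ± 0.30 (adjusted p = 7.96e-13). At 1 week it was at 2.72, 2.99 and 3.62 RPKM, still called above C0 by 0.88 ± 0.24 (adjusted p = 0.00341).

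Among the target genes, Cyr61 fell at 4 h after sham surgery and was higher after PH than after sham at 10 and 48 h. Cyr61, a secreted matrix protein made early after growth stimuli, was between 1.85 and 4.51 RPKM (median 2.38) in C0. The S4 livers were at 0.422, 0.768, 0.798, 0.914 and 1.12 RPKM, the X4 livers at 1.94, 1.37 and 1.94, and the unoperated C4 livers at 4.07, 4.25 and 7.53. All S4 livers were below all X4 livers, and all X4 livers below all C4 livers. Against C4, Cyr61 fell by 2.37 on the log2 scale (SE 0.37, adjusted p = 1.87e-07) in S4 and by 1.43 on the log2 scale (SE 0.42, adjusted p = 0.00272) in X4. C4 livers are of period 3 alone, and with the assumed period in the model the X4 difference was −0.85 ± 0.55 (adjusted p = 0.213) and not called. Against C0, Cyr61 fell by 1.42 on the log2 scale (SE 0.28, adjusted p = 1.93e-05) in S4, while the X4 difference was −0.47 ± 0.34 (adjusted p = 0.245), with ranges that overlapped. Against unoperated livers, X4 was thus called lower than C4 and not lower than C0. The difference of X4 and S4 was 0.95 ± 0.37 (adjusted p = 0.0783).

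At 10 h X10 livers were at 6.24, 4.62, 3.13, 4.52, 3.26 and 5.44 RPKM for Cyr61 and S10 livers at 1.30, 1.29 and 1.55, without overlap. The log2 difference was 1.52 ± 0.36 (adjusted p = 0.00259), and 1.49 ± 0.31 (adjusted p = 0.00073) within period 2. At 28 h the livers were at 10.2, 17.8 and 4.74 RPKM, all above C0, and this was the highest group mean of the gene. Cyr61 in X28 was 1.84 ± 0.34 (adjusted p = 1.02e-05) above C0 and 2.31 ± 0.42 (adjusted p = 9.18e-06) above X4. With any 1 liver left out both stayed called, at 1.40 to 2.32 above C0 and 1.87 to 2.79 above X4. At 48 h X48 livers were at 2.78, 3.14, 5.28, 5.19 and 4.98 RPKM and S48 livers at 1.13, 1.79 and 1.55, again without overlap, with a difference of 1.35 ± 0.37 (adjusted p = 0.00224).

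The triplicates of S1 and of X20 differed for Cyr61. S1 replicates 1 to 3 were at 0.876, 1.27 and 1.30 RPKM and replicates 4 to 6 at 5.19, 2.87 and 2.43. X1 exceeded S1 by 1.68 ± 0.31 (adjusted p = 0.000259) within period 1, and within period 2 the difference was −0.25 ± 0.31 (adjusted p = 0.758). X20 replicates 1 to 3 were at 6.84, 5.70 and 4.45 RPKM and replicates 4 to 6 at 1.91, 1.51 and 1.84. Against C0 of the same period, X20 was higher by 1.10 ± 0.31 (adjusted p = 0.00398) in period 1, and the difference was −0.14 ± 0.31 (adjusted p = 0.796) in period 2.

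Ctgf was high at 1 h after either operation in period 1. Ctgf encodes a matrix-associated growth factor and is a common readout of Yap activity. X1 livers were at 3.87, 5.69, 3.76, 3.07, 4.61 and 5.92 RPKM and S1 livers at 2.14, 2.24, 2.33, 3.45, 2.58 and 4.69. Both groups overlapped C0, whose replicates 4 to 6 were as high. The log2 difference to all C0 livers was 1.38 ± 0.29 (adjusted p = 0.000126) in X1 and 0.77 ± 0.29 (adjusted p = 0.0409) in S1, the latter lost in 10 of 15 fits that each left out 1 liver. Within period 1 it was 2.43 ± 0.30 (adjusted p = 4.6e-09) in X1 and 1.54 ± 0.30 (adjusted p = 8.65e-05) in S1. Within period 2 it was 0.04 ± 0.30 (adjusted p = 0.978) in X1 and −0.27 ± 0.30 (adjusted p = 0.775) in S1. The difference to C0 at 1 h was thus called in period 1 and not in period 2. At 4 h S4 livers were at 5.02, 4.93, 3.74, 2.33 and 2.75 RPKM and X4 livers, none of period 1, at 3.47, 3.55 and 1.90. Over all livers, Ctgf was called higher in S4 than in C0 and in C4. Against C0 the periods went in opposite directions. Mean RPKM was 0.608 in C0 and 4.56 in S4 in period 1, and 4.31 and 2.54 in period 2. In X4 Ctgf was called higher than in C4, a call lost in 4 of 6 fits that each left out 1 liver, and not than in C0.

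Against sham, Ctgf was higher at 10 h. X10 livers were at 4.28, 1.24, 1.13, 4.19, 3.68 and 2.33 RPKM and S10 livers at 0.822, 0.632 and 0.632, without overlap. The log2 difference was 1.54 ± 0.39 (adjusted p = 0.00489), and 1.92 ± 0.30 (adjusted p = 8.7e-06) within period 2. Against all C0 livers, X10 was not called and S10 was called lower. The S10 call was lost in 6 of 12 fits that each left out 1 liver. Mean RPKM in period 2 was 4.31 in C0, 3.40 in X10 and 0.695 in S10. In period 1 it was 0.608 in C0 and 2.22 in X10. At 48 h the S48 livers, at 2.30, 2.28 and 2.85 RPKM, overlapped the X48 livers, at 1.27, 1.55, 1.52, 2.69 and 2.41, and the difference was −0.39 ± 0.40 (adjusted p = 0.462). Against C0, X20 and X36 went in opposite directions in the periods. X20 differed by 1.46 ± 0.30 (adjusted p = 8.49e-05) in period 1 and by −1.73 ± 0.30 (adjusted p = 5.39e-06) in period 2. X36 differed by 0.87 ± 0.30 (adjusted p = 0.0126) and by −1.23 ± 0.30 (adjusted p = 0.000513). At 4 weeks, at 0.307 and 0.568 RPKM, Ctgf was below C0 by 1.40 on the log2 scale (SE 0.43, adjusted p = 0.0271), a call lost when either X4W liver was left out, while the C4W livers were at 0.560 and 0.585.

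Ankrd1, a nuclear ankyrin-repeat protein found in strained muscle and a Yap target in many cells, was the lowest of the targets. X10 livers were at 0.865, 0.303, 0.355, 0.579, 0.423 and 0.648 RPKM and S10 livers at 0.0347, 0.0285 and 0.132, without overlap. The log2 difference was 1.28 ± 0.31 (adjusted p = 0.00321), and 1.35 ± 0.27 (adjusted p = 0.000414) within period 2. The highest group mean was X28, with livers at 0.761, 0.950 and 0.542 RPKM, and within period 1 X28 was above C0 by 1.27 ± 0.27 (adjusted p = 0.000153). At 48 h X48 livers, at 0.162, 0.321, 0.445, 0.380 and 1.00 RPKM, were all above S48 livers, at 0.115, 0.156 and 0.0937. This difference of 0.84 ± 0.32 (adjusted p = 0.027) was lost without X48 replicate 5, S48 replicate 1 or S48 replicate 3. Against all C0 livers Ankrd1 was called higher in X10 and X28 and lower in S4 and S10. With C0 replicates 7 to 9 alone as the resting group, the X10 difference was −0.24 ± 0.29 (adjusted p = 0.488). In fits that each left out 1 liver, the X10 call was lost in 10 of 15, the S4 call in 7 of 14, the S10 call in 4 of 12, and the X28 call without X28 replicate 2. In X20, Ankrd1 was at 0.551, 0.682 and 0.433 RPKM in replicates 1 to 3 and at 0.0628, 0.112 and 0.256 in replicates 4 to 6.

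Amotl2, which encodes a junction protein that binds Yap1 and is also a Yap target, was lower than C0 early. C0 livers were between 2.53 and 4.70 RPKM (median 3.36). X1 livers were between 1.75 and 2.44 RPKM (median 1.97), all below C0, and S1 livers between 1.82 and 2.81 RPKM (median 2.25), which overlapped it. Amotl2 fell by 0.74 on the log2 scale (SE 0.14, adjusted p = 1.33e-05) in X1 and by 0.58 on the log2 scale (SE 0.14, adjusted p = 0.000943) in S1. It also fell by 0.67 on the log2 scale (SE 0.14, adjusted p = 5.5e-05) in S4 and by 0.68 on the log2 scale (SE 0.17, adjusted p = 0.000726) in S10. Amotl2 was 0.54 ± 0.19 (adjusted p = 0.0408) higher in X4 than in S4, but X4 livers, at 4.13, 2.15 and 3.64 RPKM, overlapped S4 livers, at 1.97, 2.03, 1.53, 2.33 and 2.94, and within period 2 the difference was 0.26 ± 0.23 (adjusted p = 0.529). This call was lost in 5 of 8 fits that each left out 1 liver. At 44 h it was below C0 by 0.74 on the log2 scale (SE 0.17, adjusted p = 0.000196) and below X20 of the same time of day by 0.66 on the log2 scale (SE 0.18, adjusted p = 0.00374), the latter not without X44 replicate 2.

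**Figure D3:**
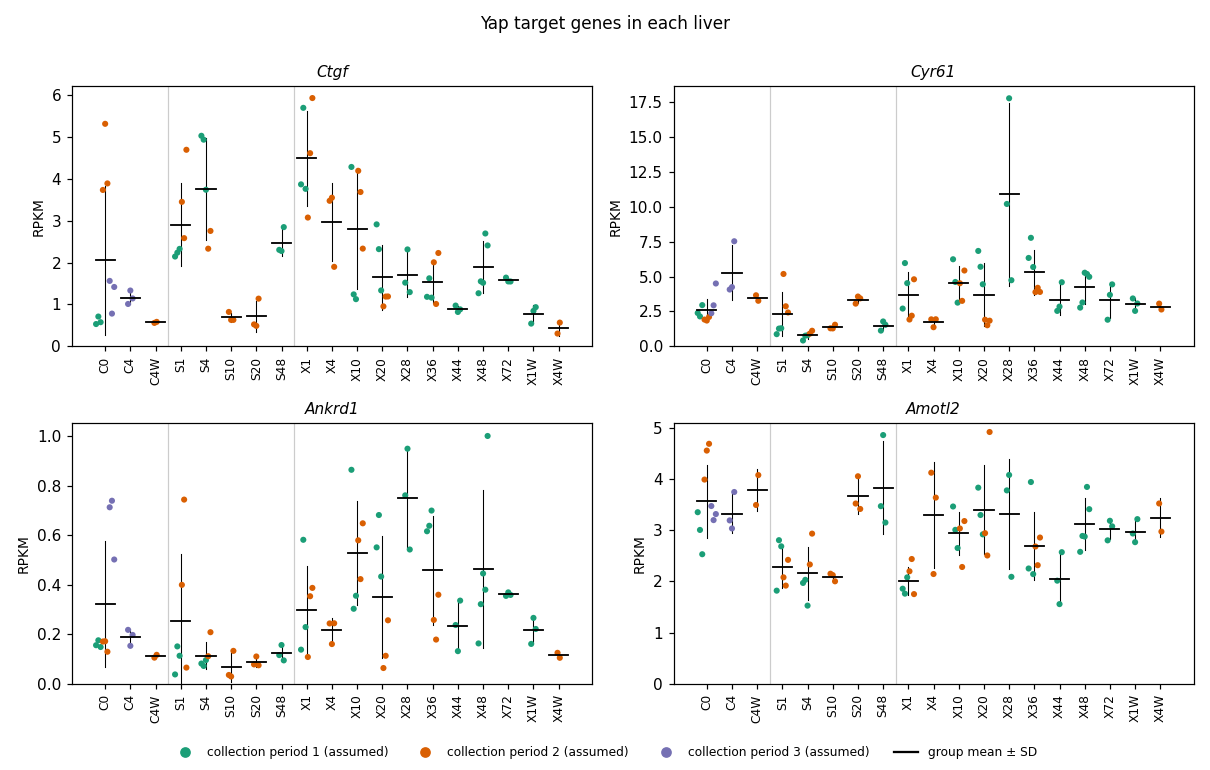
RPKM of Ctgf, Cyr61, Ankrd1 and Amotl2 in each of the 80 livers, by group. Points are livers coloured by assumed collection period, and bars are group means with SD. C0 replicates 4 to 6 stand high for Ctgf and replicates 7 to 9 for Ankrd1, and the triplicates of X20 part for Cyr61 and Ankrd1.

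In order of the group means of log2 RPKM, the highest and lowest groups of each gene were as follows, given as mean ± SD of RPKM. Yap1 ran from 9.12 ± 0.804 (n = 6) RPKM in X10 to 4.94 ± 0.148 (n = 3) in C4, and Wwtr1 ran from 4.33 ± 1.22 (n = 3) RPKM in X1W to 1.93 ± 0.0302 (n = 2) in C4W. Tead1 ran from 4.95 ± 0.492 (n = 3) RPKM in X4 to 0.120 ± 0.0352 (n = 3) in C4, and Lats1 ran from 5.38 ± 0.327 (n = 6) RPKM in X10 to 2.98 ± 0.219 (n = 3) in C4. Lats2 ran from 2.30 ± 0.301 (n = 6) RPKM in X10 to 1.27 ± 0.149 (n = 6) in S1, and Ctgf ran from 4.49 ± 1.14 (n = 6) RPKM in X1 to 0.437 ± 0.185 (n = 2) in X4W. Cyr61 ran from 10.9 ± 6.54 (n = 3) RPKM in X28 to 0.805 ± 0.255 (n = 5) in S4, and Ankrd1 ran from 0.751 ± 0.204 (n = 3) RPKM in X28 to 0.0651 ± 0.0582 (n = 3) in S10. Amotl2 ran from 3.79 ± 0.414 (n = 2) RPKM in C4W to 2.02 ± 0.275 (n = 6) in X1, and Ajuba ran from 8.28 ± 1.85 (n = 3) RPKM in X28 to 0.584 ± 0.169 (n = 6) in X1. Neighbours in this order mostly did not differ beyond their spread. Of the 18 pairs of neighbouring groups, the livers did not overlap in 3 pairs for Wwtr1, 2 for Tead1, and 1 each for Yap1, Ctgf, Cyr61 and Ajuba. For Lats1, Lats2, Ankrd1 and Amotl2 every pair overlapped.

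Counted over all 10 genes, the post-PH groups from 1 h to 1 week differed from C0 in 3 to 8 of them. Called genes numbered 3 in X1 (13.5% of all 15396 genes), 4 in X4 (38.2%), 8 in X10 (36.4%), 4 in X20 (24.1%), 6 in X28 (24.9%) and 4 in X36 (35.0%). They numbered 6 in X44 (39.2%), 6 in X48 (38.1%), 5 in X72 (33.2%), 3 in X1W (16.9%) and 1 in X4W (5.62%). Of these 50 calls 45 were higher and 5 lower. Among all genes called, 35.9% were higher in X1, 29.5% in X4, 58.3% in X10, 68.4% in X20 and 54.7% in X28. The share was 73.5% in X36, 78.5% in X44, 79.9% in X48, 80.1% in X72, 73.5% in X1W and 62.8% in X4W. Against C0 the calls in the sham groups numbered 3 in S1 (7.77% of all genes), 8 in S4 (34.4%), 7 in S10 (29.1%), 1 in S20 (12.1%) and 0 in S48 (8.88%) in limma. Of these 19 calls 10 were higher. Among all genes called, 31.3% were higher in S1, 34.1% in S4, 61.3% in S10, 64.6% in S20 and 43.1% in S48. For the 0 in S48, 4 of the 10 genes had an unadjusted p below 0.05, as did 4803 of all 15396 genes. The median log2 difference of the 10 genes was 0.74 in X10, beside 0.07 over all genes, and 0.63 in X48, beside 0.24. With every library scaled to 1 median, the calls of Yap1, Wwtr1, Lats1 and Cyr61 in X48 were lost, and Amotl2 was called lower.

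PH and sham of the same hour share the operation and the time of day. None of the 10 genes was called at 1 h in limma (0.650% of all genes). The unadjusted p in limma was below 0.05 for 2 of the 10 and for 1430 of all 15396 genes. At 4 h, 2 were called (8.64%), at 10 h 5 (7.02%), at 20 h 1 (7.11%) and at 48 h 5 (27.2%), all 13 higher after PH. Among all genes called, 36.5% were higher after PH at 4 h, 48.5% at 10 h, 63.3% at 20 h and 90.1% at 48 h. The 5 called at 10 h were Tead1, Ctgf, Cyr61, Ankrd1 and Ajuba, and the 5 at 48 h were Wwtr1, Tead1, Cyr61, Ankrd1 and Ajuba. Within period 1, 2 genes, Ctgf and Cyr61, were called at 1 h (4.89% of all genes). Within period 2, 0 were called at 1 h in limma (2.40%), where 1 had an unadjusted p below 0.05. There were 1 called at 4 h (8.05%), 5 at 10 h (7.06%) and 1 at 20 h (8.28%) in that period, and the 5 at 10 h were those called over all livers. The contrast of the difference at 48 h with that at 1 h called Wwtr1, by 0.64 ± 0.17 (adjusted p = 0.00332), and Ajuba (23.7% of all genes). After scaling every library to 1 median, Ajuba was called and Wwtr1 was not (0.30 ± 0.17, adjusted p = 0.234). In PH against sham at 48 h under this scaling, Cyr61 and Ajuba were still called, Wwtr1, Tead1 and Ankrd1 were not, and Amotl2 was called lower.

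Time of day and the late time points gave their own counts. Unoperated C4 differed from C0 in Cyr61 alone (0.96 ± 0.34, adjusted p = 0.044, with 7.89% of all genes called), a call lost in 8 of 12 fits that each left out 1 liver. Within period 3 the difference of Cyr61 was 0.64 ± 0.31 (adjusted p = 0.23). Against C4, 7 of the 10 genes were called in S4 (43.3%) and 5 in X4 (45.6%). X28 differed from X4 in 4 genes (28.3%) and X44 from X20 in 1 (16.1%). X4W differed from C4W in 0 of the 10 genes in limma (0.0650% of all genes), where 1 had an unadjusted p below 0.05.

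**Figure D4:**
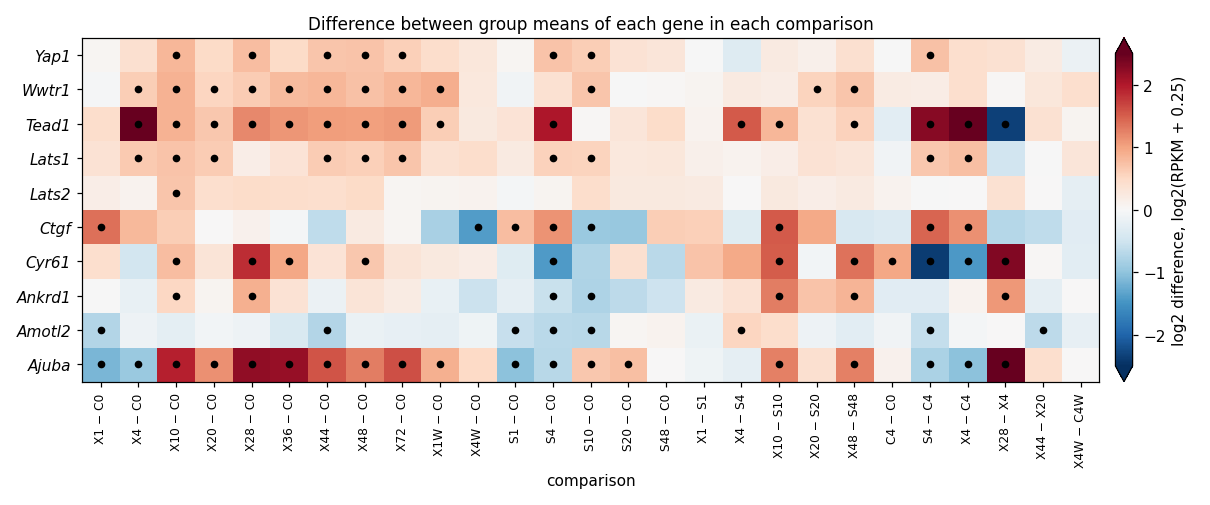
Log2 difference between group means of the 10 genes (rows) in 27 comparisons (columns), from limma on log2(RPKM + 0.25). Red is higher and blue lower in the first group named, the deepest colours also hold values beyond the scale, and a dot marks a called difference. Tead1 in X4 and S4 and Ajuba from X10 on carry strong colours.

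Of other genes of the pathway, a part was higher after PH. Of 31 further Hippo genes 24 were tested. Against C0, 7 of the 24 were called in X10 (36.4% of all genes), 12 in X44 (39.2%) and 12 in X48 (38.1%), all higher, where 21.2%, 30.8% and 30.4% of all genes were higher. The median log2 difference of the list in X48 was 0.51 beside 0.24 for all genes. Map4k4, a kinase that acts on Lats beside the core cascade, was at 13.6 ± 2.00 RPKM in X48 (SD, n = 5), 1.52 ± 0.290 in C0 (n = 9) and 1.62 ± 0.190 in S48 (n = 3). It rose by 2.98 ± 0.17 (adjusted p = 6.92e-24) against C0 and by 2.88 ± 0.23 (adjusted p = 2.67e-17) against S48. Fat1, a large atypical cadherin, rose by 1.36 ± 0.11 (adjusted p = 8.44e-17) against C0 and by 0.88 ± 0.15 (adjusted p = 1.34e-06) against S48. Wwc2, a relative of the scaffold Kibra, rose by 0.98 ± 0.12 (adjusted p = 5.04e-11) against C0, and Amot, a relative of Amotl2, by 0.70 ± 0.15 (adjusted p = 0.000108) against S48. In X48 against S48, 7 of the 24 were called, all higher, a share near that of all genes (27.2% called, 24.5% higher), and the median was 0.33 beside 0.27. At 1 h after PH, Vgll4, a Tead partner that competes with Yap1, was higher than in C0 by 0.98 ± 0.14 (adjusted p = 6.43e-08) and Rassf1 by 0.62 ± 0.15 (adjusted p = 0.000583), and Rassf6 fell by 1.07 (SE 0.13, adjusted p = 1.36e-09).

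Further targets of Yap and Taz known from human tumours moved in both directions. Of 17 listed, 13 were tested. In X48 against C0, 5 were called higher and 1 lower (30.4% and 7.66% of all genes), with a list median of 0.28 beside 0.24 for all genes. The kinase gene Nuak2 rose by 0.91 ± 0.18 (adjusted p = 1.52e-05), Ccdc80 by 0.90 ± 0.21 (adjusted p = 0.000172) and Nt5e, an ectonucleotidase, by 0.72 ± 0.22 (adjusted p = 0.00388). Igfbp3, which binds insulin-like growth factors, fell by 2.13 (SE 0.18, adjusted p = 5.19e-16). Against S48, 5 were higher and 1 lower (24.5% and 2.69% of all genes), with Ccdc80 at 0.93 ± 0.28 (adjusted p = 0.00471), Nuak2 at 0.83 ± 0.24 (adjusted p = 0.00347), Nt5e at 0.81 ± 0.29 (adjusted p = 0.0178) and Igfbp3 at −0.89 ± 0.24 (adjusted p = 0.00177). At 4 h, 1 of the 13 was higher and 4 were lower in X4 than in C0, where 11.2% and 26.9% of all genes were, and 6 were lower in S4, where 22.7% of all genes were. At 10 h against sham, where Ctgf, Cyr61 and Ankrd1 were called, 1 of the 13 was called (7.02% of all genes), Crim1 at 0.58, named after its value was seen. At 1 h after PH, Nuak2 fell by 1.16 (SE 0.17, adjusted p = 2.17e-07) and was the only one of the 13 called.

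The genes whose group means followed each member most closely were taken among 12746 detected protein-coding genes. The values in parentheses are Pearson correlations over 19 group means, given as a description, and the groups share periods and sessions. Nearest to Ankrd1 were Tagln (0.92), Myl9 (0.85) and Acta2 (0.83), all genes of contractile cells. Nearest to Tead1 were Sgms1 (0.95), Tnfaip3 (0.93) and Etv6 (0.92), and nearest to Yap1 were Tmem167 (0.95), Lrrc59 (0.95) and Fndc3b (0.94). Wwtr1 was followed by Tanc1 (0.92), Rabl3 (0.91) and Slc6a8 (0.90), and Ajuba by Bpgm (0.94), Fam65a (0.93) and Slc52a2 (0.93). For Lats1 the genes were Btaf1 (0.92), Ranbp2 (0.91) and Nup98 (0.91), and for Lats2 Slc10a3 (0.90), Rrp7a (0.89) and Slc12a4 (0.89). For Ctgf they were 5730403B10Rik (0.90), Dcaf13 (0.88) and Fam134b (0.87). Cyr61 had Bdh1 (0.82), Smap2 (0.82) and Egln3 (0.80), and Amotl2 had 1700009P17Rik (0.74), Gpr77 (0.69) and Adcy4 (0.65), the lowest values of the 10.

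Whole liver holds several cell types, and fewer cells of a type cannot be told apart from less RNA per cell. Hepatocyte markers were detected in every liver, Alb at a median of 27194 RPKM. The summed level of the 7 hepatocyte genes was 46874 to 56353 RPKM in C0. It was 30107 to 35140 in X10, 25964 to 34294 in X20, 28864 to 31643 in X28 and 33337 to 37394 in S10. It was 34057 to 39270 RPKM in X48 and 39236 to 48523 in S48. Of these, all but S48 lay below C0 without overlap. So did X4 (38875 to 41690), X44 (30986 to 45344), S20 (35002 to 38199) and the untreated C4W livers (37778 to 38890). Of 11 stellate cell and fibroblast genes, 7 were called higher in X48 than in S48 (24.5% of all genes were higher) and 0 lower, led by Col1a1 (2.79) and Col3a1 (2.17), and their summed level was 75.1 to 136 RPKM in X48 and 62.1 to 66.2 in S48. At 10 h, where 7.02% of all genes were called, 1 of the 11 was (Des, 0.83), at sums of 51.9 to 68.5 RPKM in X10 and 37.5 to 53.0 in S10. In X28 against C0, with 24.9% of all genes called, 1 was higher (Acta2, 1.40) and 4 were lower, at sums of 59.8 to 65.2 and 66.2 to 113 RPKM. Of 8 endothelial genes, 0 were called in X48 against S48 and 1 in X10 against S10 (Tek, 0.67). Of 7 tested cholangiocyte genes, 1 (Spp1, 0.68) and 0 were called in these comparisons, and of 4 tested mesothelial genes 0 and 0. The muscle genes Ckm, Myh4, Myh1, Tnnt3 and Myh6 were listed at 0 in 69 to 77 of the 80 livers. In the others they were below the level required of a tested gene. Of the other listed muscle genes, Acta1, Actc1 and Tnni2 were at 0 in 30 to 56 livers and otherwise below that level. Mylpf was at 0 in no liver, below that level in 24, and at a median of 0.455 RPKM. Tnnt2 was below it in 67 livers, 2 of them at 0. At 4 h, where Tead1 was highest, 8 of the 11 stellate cell, 4 of the 8 endothelial and 4 of the 8 macrophage genes were lower in X4 than in C0 (26.9% of all genes) and none of them higher. The part of these cell types in the results was not tested.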

How the data were processed

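RNA-Seq was measured on poly(A) RNA from single mouse livers. Per the methods and the labels, the authors trimmed reads with Cutadapt, mapped them to mm9 with TopHat2 2.0.13 and Bowtie2, sorted them with SAMtools 0.1.19, and counted reads on the transcribed strand of Ensembl genes with featureCounts, sharing reads that map to several places. The authors deposited log2 RPKM per gene and liver, so a log2 value here is relative to transcript length and mapped reads, and genes that share sequence may share reads. Of 84 value columns 80 were tied to 1 labelled liver each, and 4, named as further sham livers at 4 h, matched no label and were not used. Of 87 labelled samples 7 had no column tied to them and were not analysed here, namely X4 replicates 1 to 3, the 3 livers at 60 h and X4W replicate 3.

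Depth was estimated from the steps between low values. Dividing by these steps gave whole reads (within 0.05 read) for 89.3% of low values in the median library. In the lowest, X28 replicate 2, the share was 42.1%, so no count test was run. This liver also held the highest Cyr61 value, 17.8 RPKM. Groups were compared with limma 3.58.1 in R 4.3.3, with a mean trend, in 1 model with a coefficient for each of 19 groups, and p-values were adjusted over all 15396 genes tested. The test was run on simulated data with independent noise in each liver, which cannot show what shared sessions do to it. Libraries of a group correlated at 0.995 at most, and none was a copy of another in its group. Copies between groups were not sought. Livers are separate animals, but animals of 1 session share their day.

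The members and lists were chosen with earlier results of these data known. Besides the members, the genes named were the 3 with the largest rise and fall in each pathway list at 48 h and 1 h, the 3 most like each member, and the 2 with the largest change in each marker list. Alternatives were other pseudocounts, filters, scaling, models and resting livers, and leaving out each liver. Sequences were read from the mm9 assembly at the 5′ ends of the GENCODE gene annotation. The upstream region of 1 member is not reported here.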

Additional observations from a re-analysis of the deposited data

Results flagged for a closer look

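Outlying livers were sought in 80 sets of 1 gene in 1 group of 4 to 10 livers, where chance sets apart about 1 in 20, and 2 were found. In X1, replicate 4 was at 1.46 RPKM of Wwtr1, while the other 5 livers were at 2.13 to 2.43. Its gap took 0.743 of the range of the group, above the critical value of 0.625. In X20, replicate 5 was at 1.49 RPKM of Lats2, the others at 1.81 to 2.04, with a gap of 0.630 of the range.

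The contrast of 48 h with 1 h called 23.7% of all genes, and 21.2% of all genes were called higher. For 2 of the 10 genes the difference between PH and sham was larger at 48 h than at 1 h by this test. It was larger by 0.64 ± 0.17 on the log2 scale for Wwtr1 and by 1.37 ± 0.34 for Ajuba (SE, limma, adjusted p = 0.00332 and 0.0012). After the libraries were scaled to 1 median, the call of Wwtr1 was lost and that of Ajuba was not. The S48 and S1 livers are of different sessions, whose part in this was not tested.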

How the results depend on the processing

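Of 280 gene-by-comparison tests of the 10 genes 102 were called, and 80 of these stayed called whichever liver was left out. Leaving out 1 liver gave 49 to 55 calls for PH against C0, 16 to 19 for sham against C0, 11 to 14 for PH against sham, 11 to 13 for the 4 h groups against C4, 4 to 6 between times of the same hour of day, 2 in the contrast of 48 h with 1 h, and 0 at 4 weeks. The 13 calls of PH against sham became 8 with a pseudocount of 1, and 8 when genes had to average above 0 on the log2 RPKM scale, a filter that removes Tead1 and Ankrd1. The latter also left 3 of 5 calls between times of the same hour of day. The 19 calls of sham against C0 became 12 with a pseudocount of 1, 10 with sets of 3 replicate numbers as a term, and 31 with C0 replicates 7 to 9 only. Scaling every library to the same median (log2 factors −0.36 to 0.39) kept 81 of the 102 calls and left 1 of 2, Ajuba, in the contrast of 48 h with 1 h.

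With the replicate number as a replicate block, sham against C0 gave 10 calls and 85 of the 102 calls were kept. Same-numbered PH and sham livers showed little sign of pairing: their deviations correlated at −0.19 to 0.27, over 0.1 in 3 of 17 pairs. At 10 and 20 h the same numbers are of different assumed periods, so those pairs cannot show whether livers were paired.

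Chosen after seeing the data were the assumed period as a term, fits within a period, and C0 replicates 7 to 9 only. The period term left 8 of 13 calls against C4. Directions turned for Ctgf within period 2, at −0.27 in S1, −0.69 in S4 and −1.73 in X20, and within period 1, at 0.87 in X36, all against C0. They turned for Ankrd1 in S4 within period 2 (0.00077) and, against C0 replicates 7 to 9 only, in X10 (−0.24) and X20 (−0.69). The cause was not tested. Depth limits Ankrd1 most.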
